A study of Homo sapiens with 6 samples.

Results

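The ARF genes encode the founding family of ADP-ribosylation factors, small GTPases that switch vesicle coats on and off at the Golgi and the plasma membrane. The human members ARF1, ARF3, ARF4, ARF5 and ARF6 were picked by gene symbol, 5 of 20979 symbols listed in the deposited expression tables. All 5 were listed in each of the 6 libraries, and all 5 stayed above 1 TPM (a transcript level scaled for length and library size) in every library. The family was singled out with the low ARF3 level under the 5p duplex already known, so its 5p values are given as a description, without a test.

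The libraries came from A172 cells, an established human glioblastoma line, and measured RNA selected by oligo-dT after lipid transfection. The 3 groups held 2 libraries each: cells given a miR-324-5p duplex (5p duplex), cells given a miR-324-3p.1 duplex (3p.1 duplex), and cells given a control microRNA, all harvested after 1 day. Every group was transfected, so no group shows untreated cells. The study dealt with how cells switch from 1 arm of a microRNA hairpin to the other, and the libraries do not show which strand of a transfected duplex was in use. The labels do not say whether the 2 replicates are separate cultures, and p-values therefore cover the spread between libraries, which may be technical.

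ARF proteins cycle between a GDP-bound form in the cytosol and a GTP-bound form on membranes, held there by a myristoyl group at the N terminus. Exchange factors load GTP, and GTPase-activating proteins end the signal. Class I (ARF1 and ARF3) and class II (ARF4 and ARF5) act mainly at the Golgi and the compartments around it, where they recruit the COPI coat and clathrin adaptors. ARF6, the class III member, acts at the plasma membrane and on endosomes. A microRNA lowers transcripts mainly through its seed, the bases near its 5′ end that pair with sites in the 3′UTR of a messenger RNA.

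The sequences below show the arms of the miR-324 hairpin and the ARF3 stretches that match the seed of the 5p arm, since ARF3 was the 1 member of 5 with such a match. Mature sequences are from RefSeq (GRCh38.p14; hairpin on chromosome 17, minus strand), with the seed, bases 2 to 8, in capitals.
miR-324-5p: cGCAUCCCcuagggcauuggug
miR-324-3p: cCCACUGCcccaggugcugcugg
Since the 3p.1 duplex is named in the labels without its bases, the 3p arm was also read from its base 2 and its base 4, which move the seed.
3p arm from base 2: cCACUGCCccaggugcugcugg
3p arm from base 4: aCUGCCCCaggugcugcugg
The ARF3 stretches are from GENCODE 29 transcripts (GRCh38), 5′ to 3′ on the minus strand of chromosome 12, with the matched letters in capitals.
ARF3 8mer for miR-324-5p: agtgcttgtGGGATGCAgtggtcttc
ARF3 7mer for miR-324-5p: tgttacccaGGATGCAgcaggtgtg
ARF3 8mer for the 3p arm from base 2: ctggactttGGCAGTGAataaacatg
These stretches lie at chr12:48937507-48937532, chr12:48937084-48937108 and chr12:48935736-48935761, and the last is shown as the longest match of ARF3 to any reading of the 3p arm.

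Matches were sought on the transcript strand as 8mers (the complement of bases 2 to 8 followed by A), 7mers to bases 2 to 8, and 7mers to bases 2 to 7 followed by A. For miR-324-5p these spell GGGATGCA, GGGATGC and GGATGCA, and each match was counted once, in its longest class. ARF3 (ENSG00000134287.9; chromosome 12, 48935723 to 48957551, minus strand) has a longest annotated 3′UTR of 3224 nt. Its 8mer lies 1424 nt after the stop codon (chromosome 12, 48937516 to 48937523) and its 7mer starts 424 nt further on (48937093 to 48937099). An 8mer for this seed was held by 338 of 12005 expressed genes with an annotated 3′UTR (2.8%), and any of the 3 classes by 14.6%. The other annotated ARF3 3′UTRs, of 393 and 22 nt, hold neither match, and gene-level TPM does not tell these forms apart.

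ARF3 also held 5 matches to the 3 readings of the 3p arm. For the RefSeq start (GCAGTGG) there was a match near the stop codon (chromosome 12, 48938617 to 48938623) and another at 1429 nt, which shares 3 bases with the 5p 8mer. For the start at base 2 (GGCAGTG) there was a 7mer at 323 nt, which overlaps the RefSeq match near the stop codon, and an 8mer at 3195 nt (48935745 to 48935752). For the start at base 4 (GGGGCAG) there was a 7mer at 2372 nt. Any match was found in 32.1%, 31.0% and 27.9% of expressed genes for these seeds. ARF1 (3′UTR of 1199 nt) and ARF6 (2790 nt) held none of the matches sought for any of the 4 seeds. ARF4 (849 nt) held 7mers at 108 and 740 nt for the start at base 4. ARF5, with the shortest 3′UTR (406 nt), held 7mers at 77 nt for the start at base 2 and at 8 nt for the start at base 4. A match is a description of letters, and its absence says only that those letters are not in the annotated 3′UTR.

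**Figure D1:**
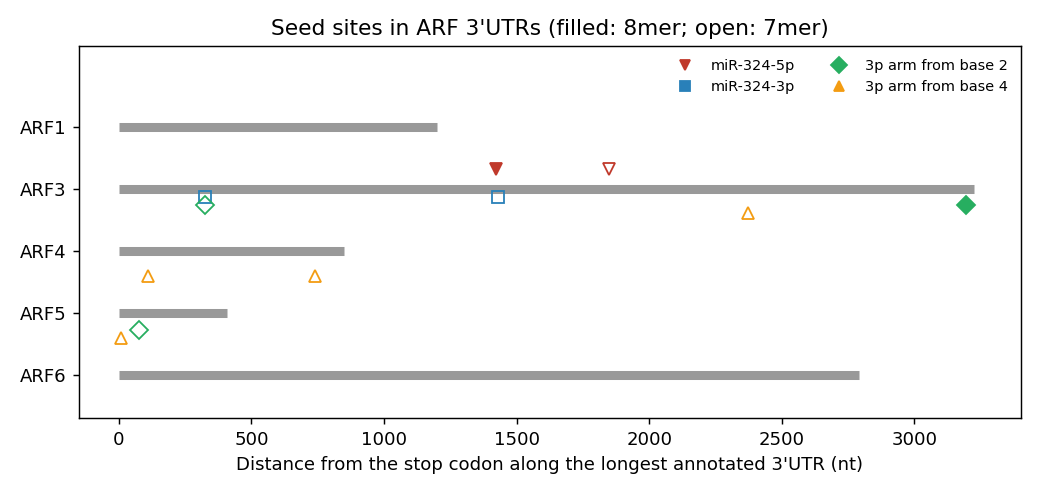
Seed matches along the longest annotated 3′UTR of each ARF gene (x axis, nt from the stop codon; grey bars, 3′UTR length; filled symbols, 8mers; open symbols, 7mers; colours, seeds). Red symbols, the miR-324-5p seed, appear at 1424 and 1848 nt of ARF3 and on no other member.

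Before the members, the state of the libraries was checked. Of 8 glial and mesenchymal glioblastoma markers, VIM stood at 4788 to 5910 TPM, CD44 at 708 to 929 TPM and NES at 90.9 to 133 TPM. CHI3L1, OLIG2 and SOX2 were low, between 1.75 and 4.98 TPM. The glial marker GFAP was at most 0.25 TPM, and S100B was listed in no library. Epithelial, endothelial and neuronal markers summed to at most 4.74, 0.97 and 1.01 TPM per library, and blood markers to 7.46 to 9.85 TPM, from PTPRC and LYZ, with CD3E not listed. The control libraries stood apart in interferon response genes, whose 15 listed members summed to 250.4 to 308 TPM in the 4 duplex libraries, 1015 TPM in control replicate 1 and 3205 TPM in control replicate 2. The part of this response in the ARF values was not tested. Without control replicate 2 the log2 difference between the 5p duplex and control was -1.40 for ARF3, -0.17 for ARF1, 0.12 for ARF4, -0.55 for ARF5 and -0.01 for ARF6, and without control replicate 1 it was -1.25 for ARF3, -0.06 for ARF1, 0.175 for ARF4, -0.32 for ARF5 and 0.00 for ARF6. Bulk RNA cannot tell a lower level in every cell from fewer cells with the transcript, and the files hold no read numbers, so depth is unknown.

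ARF3, a class I GTPase of the Golgi and the trans-Golgi network, was the member whose level stood furthest apart. Its level was 46.1 and 51.0 TPM in the 5p duplex libraries, 105 and 121 TPM in the 3p.1 duplex libraries, and 129.9 and 117 TPM in the control libraries. The 5p duplex libraries lay below all 4 others, while the 3p.1 duplex and control libraries overlapped. Mean levels were 48.5 ± 3.49 TPM with the 5p duplex, 113 ± 11.2 TPM with the 3p.1 duplex and 123 ± 9.08 TPM in control (SD, n = 2 each). The 5p duplex mean differed from control by -60.7% in TPM, or -1.33 on the log2(TPM + 1) scale (SE 0.11), and from the 3p.1 duplex by -57.1% in TPM (log2 difference -1.20, SE 0.11).

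Between the 3p.1 duplex and control, ARF3 differed by -0.13 on the log2 scale (SE 0.11; 95% interval -0.40 to 0.14). This contrast shares the control libraries with the one known when the family was chosen, so it is not independent of that choice. The limma model did not call ARF3 (adjusted p = 0.924). The interval leaves room for a decrease or a small increase, so it does not show equal levels. Of the 13400 genes that averaged 1 TPM or more, ARF3 ranked 106 from the lowest log2 difference with the 5p duplex against control and 55 against the 3p.1 duplex. Against control, 5 of the 338 genes with a 5p 8mer stood at or below its value, itself included, and so did 51 of 10257 genes with no 5p match. Against the 3p.1 duplex these numbers were 4 of 338 and 3 of 10257. The median log2 difference between the 5p duplex and control was -0.135 over genes with a 5p 8mer and -0.024 over genes with no match, so ARF3 lay far below the middle of its own class.

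ARF1, the class I partner of ARF3 and the main recruiter of the COPI coat, was the most abundant member. Its level was 491 and 501 TPM with the 5p duplex, 571 and 537 TPM with the 3p.1 duplex, and 559 and 518 TPM in control. The 5p duplex libraries were the lowest, by a small margin: the mean was 496 ± 6.66 TPM, against 538 ± 29.1 TPM in control (SD, n = 2 each), a log2 difference of -0.12 (SE 0.09). The log2 difference between the 3p.1 duplex and control was 0.04 (SE 0.09; 95% interval -0.17 to 0.25), which limma did not call (adjusted p = 0.981).

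ARF4, a class II GTPase of the early secretory pathway, ran the other way. Its level was 441 and 427 TPM with the 5p duplex, 360.1 and 366 TPM with the 3p.1 duplex, and 399 and 384 TPM in control. The 3 groups did not overlap, with the 5p duplex highest and the 3p.1 duplex lowest. The 5p duplex mean was 10.8% above control (log2 difference 0.15, SE 0.08) and 19.4% above the 3p.1 duplex (0.26, SE 0.08). Between the 3p.1 duplex and control the log2 difference was -0.11 (SE 0.08; 95% interval -0.30 to 0.08), not called by limma (adjusted p = 0.881).

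ARF5, the other class II member, had the second largest difference in the family. Its level was 86.3 and 103 TPM with the 5p duplex, 123 and 132 TPM with the 3p.1 duplex, and 139 and 118 TPM in control. The 5p duplex libraries lay below the other 4. The mean was 94.8 ± 11.98 TPM, against 128 ± 14.4 TPM in control (SD, n = 2 each), a log2 difference of -0.44 (SE 0.13), and replicates of these groups differed by 17.9% and 15.8% of their means. The difference was -0.31 without 5p duplex replicate 1 and -0.56 without 5p duplex replicate 2. Between the 3p.1 duplex and control ARF5 differed by -0.01 (SE 0.13; 95% interval -0.31 to 0.29; limma adjusted p = 0.997).

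ARF6, which regulates endocytosis and actin at the cell surface, was the member with the smallest difference between the 5p duplex and control. Its level was 75.4 and 68.4 TPM with the 5p duplex, 69.8 and 67.2 TPM with the 3p.1 duplex, and 72.2 and 71.7 TPM in control. The 5p duplex libraries lay on either side of the control libraries, and all 6 values fell within a narrow range. Group means were 71.9 ± 4.93, 68.5 ± 1.83 and 71.9 ± 0.304 TPM (SD, n = 2 each) with the 5p duplex, with the 3p.1 duplex and in control. The 3p.1 duplex libraries lay just below control, with a log2 difference of -0.07 (SE 0.09; 95% interval -0.28 to 0.15; limma adjusted p = 0.955).

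**Figure D2:**
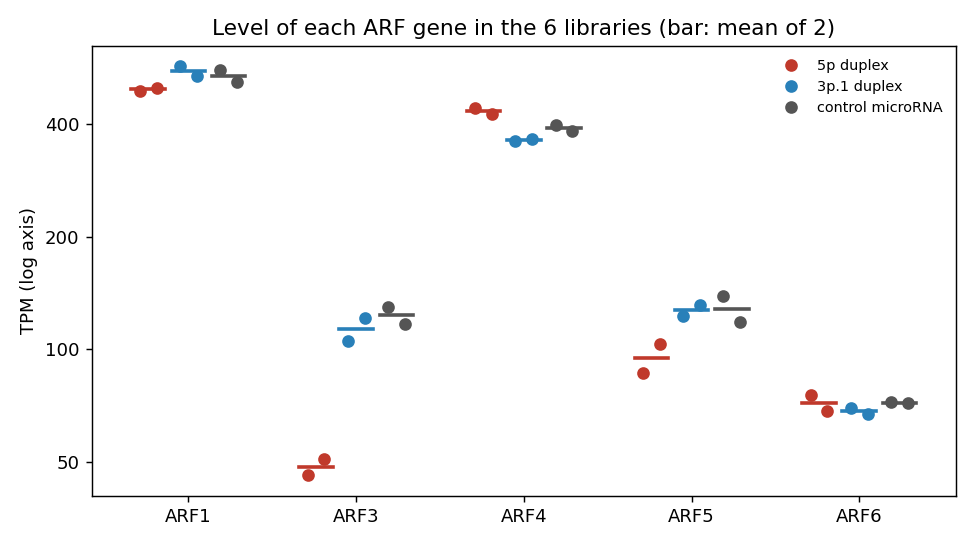
TPM of each ARF gene in each library (y axis, log scale; points, libraries; bars, means of 2; red, 5p duplex; blue, 3p.1 duplex; grey, control). ARF3 stands at 46.1 and 51.0 TPM with the 5p duplex, below ARF6 there, while in the other 4 libraries it lies at 105 to 129.9 TPM.

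Counted over the family, 3 members (ARF1, ARF3 and ARF5) had 5p duplex libraries below both control libraries, where 22.1% of all 13400 genes did. ARF4 alone had them above, as did 12.7% of all genes. Against the 3p.1 duplex the same 3 members were lower and ARF4 was higher, with 19.4% of all genes lower and 21% higher. These contrasts share the 5p duplex libraries. The median log2 difference of the 5 members was -0.12 against control and -0.16 against the 3p.1 duplex, where the medians of all genes were -0.03 and 0.01. Between the 3p.1 duplex and control, ARF4 and ARF6 did not overlap, both lower, as in 24.1% of all genes, and 0 members were higher without overlap, as 12.1% of all genes were. In that contrast limma called 0 of 5 members at an adjusted p under 0.05, with 0 at an unadjusted p under 0.05, and it called 0.0149% of all genes (2 of 13400). Exact permutation of 2 libraries against 2 yields no p under 0.333 for a gene, and was not used.

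**Figure D3:**
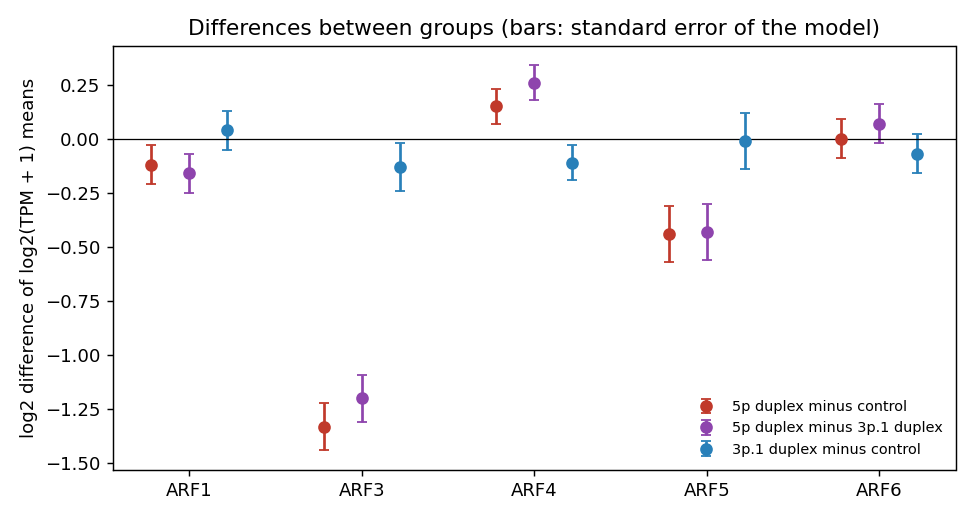
Differences between group means of log2(TPM + 1) for each ARF gene (y axis; bars, standard errors of the model; red, 5p duplex minus control; purple, 5p duplex minus 3p.1 duplex; blue, 3p.1 duplex minus control). ARF3 lies at -1.33 and -1.20 in the contrasts with the 5p duplex and at -0.13 in the third, and no other member passes -0.44.

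The order of the members shifted with ARF3. With the 5p duplex the order of mean levels was ARF1, ARF4, ARF5, ARF6 and ARF3, and the libraries of neighbours in that order did not overlap. With the 3p.1 duplex and in control it was ARF1, ARF4, ARF5, ARF3 and ARF6. ARF5 and ARF3 overlapped in control and could not be ordered there. The ratio of ARF1 to ARF3 levels was 10.7 and 9.82 with the 5p duplex, 5.43 and 4.43 with the 3p.1 duplex, and 4.30 and 4.42 in control. ARF3 made up 4.24% ± 0.278 of the summed TPM of the 5 genes with the 5p duplex, 9.23% ± 0.945 with the 3p.1 duplex and 9.84% ± 0.227 in control (SD, n = 2 each). ARF3 was thus a minor member of the family in every group.

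ARF1 and ARF4 carried most of the family's transcripts in every library, and the summed level differed less between groups than ARF3 did. The 5 genes summed to 1145 ± 7.26 TPM with the 5p duplex, 1227 ± 4.04 TPM with the 3p.1 duplex and 1254 ± 63.4 TPM in control (SD, n = 2 each). Without ARF3 the sums were 1097 ± 3.78 TPM with the 5p duplex, 1113 ± 15.3 TPM with the 3p.1 duplex and 1130 ± 54.3 TPM in control, so the 5p duplex mean stayed within the spread of control. Class I genes summed to 545 ± 10.1 TPM with the 5p duplex, 668 ± 12.9 TPM with the 3p.1 duplex and 662 ± 38.2 TPM in control. Class II genes summed to 529 ± 2.04 TPM with the 5p duplex, 490.4 ± 10.7 TPM with the 3p.1 duplex and 519.9 ± 24.9 TPM in control, with ARF4 higher and ARF5 lower in the 5p duplex libraries. The ARF4 to ARF5 ratio was 5.11 and 4.14 with the 5p duplex, against 2.93 and 2.78 with the 3p.1 duplex and 2.88 and 3.25 in control.

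Members resemble each other in sequence, which bears on how reads could be divided between them. Coding sequences were most alike between ARF1 and ARF3 (83.9% of aligned bases identical) and least alike between ARF4 and ARF6 (59.5%). RSEM, the tool named in the submitters' processing notes, is built to divide reads that match several genes by estimated abundance, and the settings used are not stated. GENCODE 29 holds 7 pseudogenes named after ARF1 or ARF4, and 0 of them were listed in any library. ARF3 overlaps 2 loci annotated as protein coding on its own strand, of which 0 were listed. The annotation behind the deposited values is not stated, and it may lack the names of these loci and pseudogenes. Their absence therefore does not show that no reads were shared. ARF4 overlaps the antisense gene ARF4-AS1, at 1.23 to 3.88 TPM. ARF5 overlaps GCC1 on the other strand, at 16.03 to 17.4 TPM, and FSCN3, at no more than 0.18 TPM. The libraries were stranded, but whether counting used the strand is not stated, so reads of such pairs may not be told apart.

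No listed gene of the surrounding ARF pathway had a log2 difference as low as that of ARF3 with the 5p duplex, against control or against the 3p.1 duplex. Few genes of any kind did, since ARF3 ranked 106 and 55 from the lowest of 13400 there. Between the 3p.1 duplex and control, 24 listed genes lay below ARF3, which ranked 3890 of 13400 in that contrast. Lists of ARF-like genes, regulators, coats and effectors, 7 in all, held 116 genes, of which 106 were expressed at a mean of at least 1 TPM. The limma model called 0 of the 106 with the 5p duplex against control, where it called 0.463% of all genes (62 of 13400). It called 0 with the 3p.1 duplex against control, where it called 0.0149% of all genes. With the 5p duplex against the 3p.1 duplex it also called 0, where it called 0.433% of all genes. With a term for replicate number added, it called 5 and 4 in the contrasts of the 5p duplex with control and with the 3p.1 duplex. Over all genes the counts were then 367 and 278. An unadjusted limma p under 0.05 was reached by 7 of the 106 (6.6%) with the 5p duplex against control, where 9.16% of all genes reached it, and by 7 (6.6%) with the 3p.1 duplex against control, where 6.86% did. With the 5p duplex against the 3p.1 duplex it was reached by 12 (11.3%), where 9.34% of all genes reached it. Median log2 differences over the 106 genes were -0.02, -0.01 and 0.03, near the medians of all genes. A match to the 5p seed was held by 25 of the 106 (23.6%), where 14.6% of all expressed genes with an annotated 3′UTR held one. An 8mer was held by 4 of the 106, and by 2.8% of all those genes. No account was taken of 3′UTR length.

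Exchange factors, which load GTP onto ARF proteins, held the most 5p matches, in 7 of 11 expressed genes (63.6%). Among all expressed genes with an annotated 3′UTR the share was 14.6%, and 3′UTR length was not taken into account. CYTH1, a cytohesin with a 7mer match, stood at 22.01 and 24.7 TPM with the 5p duplex, 29.9 and 31.9 TPM with the 3p.1 duplex, and 32.2 and 39.6 TPM in control. Its 5p duplex libraries were the lowest, but the log2 difference from control of -0.59 (SE 0.13) was not called by limma (adjusted p = 0.155). With a term for replicate number added, limma called CYTH1 (adjusted p = 0.0272). CYTH3, a cytohesin with an 8mer, showed no such pattern: it stood at 51.9 and 57.0 TPM with the 5p duplex, 35.8 and 36.7 TPM with the 3p.1 duplex, and 49.0 and 59.3 TPM in control. The 3p.1 duplex libraries were the lowest there, with a log2 difference from control of -0.56 (SE 0.12, limma adjusted p = 0.372). IQSEC2 and PSD3, exchange factors with an 8mer each, had log2 differences of -0.28 and 0.02 with the 5p duplex against control (limma adjusted p = 0.631 and 0.983). GBF1, the exchange factor of the early Golgi, held no 5p match and stood at 42.2 ± 0.75 TPM with the 5p duplex, 43.3 ± 0.247 TPM with the 3p.1 duplex and 41.6 ± 2.68 TPM in control (SD, n = 2 each).

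Among clathrin adaptors, AP1G1, which encodes the gamma subunit of the AP-1 complex that ARF proteins bring to the trans-Golgi network, carried an 8mer and came nearest to a call. It stood at 46.1 and 43.5 TPM with the 5p duplex, 68.2 and 68.1 TPM with the 3p.1 duplex, and 65.5 and 71.7 TPM in control. The 5p duplex libraries lay below all 4 others, as for ARF3, but by less. The log2 difference was -0.60 (SE 0.09) against control and -0.59 (SE 0.09) against the 3p.1 duplex, and limma called neither (adjusted p = 0.0648 and 0.0886). With a term for replicate number added, limma called both (adjusted p = 0.0228 and 0.0268), though the labels tie these numbers to no batch. AP1S1, AP3D1 and AP3S1, the most abundant adaptor subunits, had log2 differences of -0.03, 0.06 and -0.08 with the 5p duplex against control (limma adjusted p = 0.961, 0.906 and 0.945).

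The COPI coat, which ARF1 recruits to Golgi membranes, held no 5p match in its 9 subunits. Of these, 7 had positive log2 differences with the 5p duplex against control, as did 7 with the 3p.1 duplex against control. The median was 0.07 in both contrasts, which share the control libraries, and the median of all genes was -0.03 in both. COPB1 averaged 280.3 ± 3.01 TPM with the 5p duplex, 265 ± 12.7 TPM with the 3p.1 duplex and 249.7 ± 29.2 TPM in control (SD, n = 2 each), a log2 difference from control of 0.17 (limma adjusted p = 0.719). COPB2 and COPG1 differed by 0.08 and 0.07 (limma adjusted p = 0.866 each). GTPase-activating proteins had a median log2 difference of -0.09 over 21 genes with the 5p duplex. Among their 3 most abundant genes, GIT1, GIT2 and ASAP2 differed by -0.20, 0.20 and -0.06 (limma adjusted p = 0.711, 0.698 and 0.911), of which GIT2 held a 7mer match.

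ARF-like GTPases, relatives of the ARF genes with their own partners, had a median log2 difference of -0.06 over 18 genes with the 5p duplex against control. The median of all genes was -0.03. Of the 18, 12 had a negative difference, and the share of all genes with one was not computed. ARL2, which acts in tubulin folding, and SAR1A, the GTPase of the COPII coat, differed by -0.08 and -0.04 with the 5p duplex (limma adjusted p = 0.905 and 0.944). Other effectors ranged from -0.24 to 0.25 over 16 genes. Of these the lipid kinase gene PIP5K1A differed by 0.25 (limma adjusted p = 0.447), the kinase gene PI4KB by 0.00 (limma adjusted p = 1.00) and the Golgi protein gene GOLPH3 by -0.03 (limma adjusted p = 0.949). Golgi receptors and myristoylation genes ranged from -0.21 to 0.18 over 12 genes, with the cargo receptor genes KDELR2, TMED2 and TMED9 at 0.10, 0.17 and -0.08 (limma adjusted p = 0.853, 0.732 and 0.911).

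**Figure D4:**
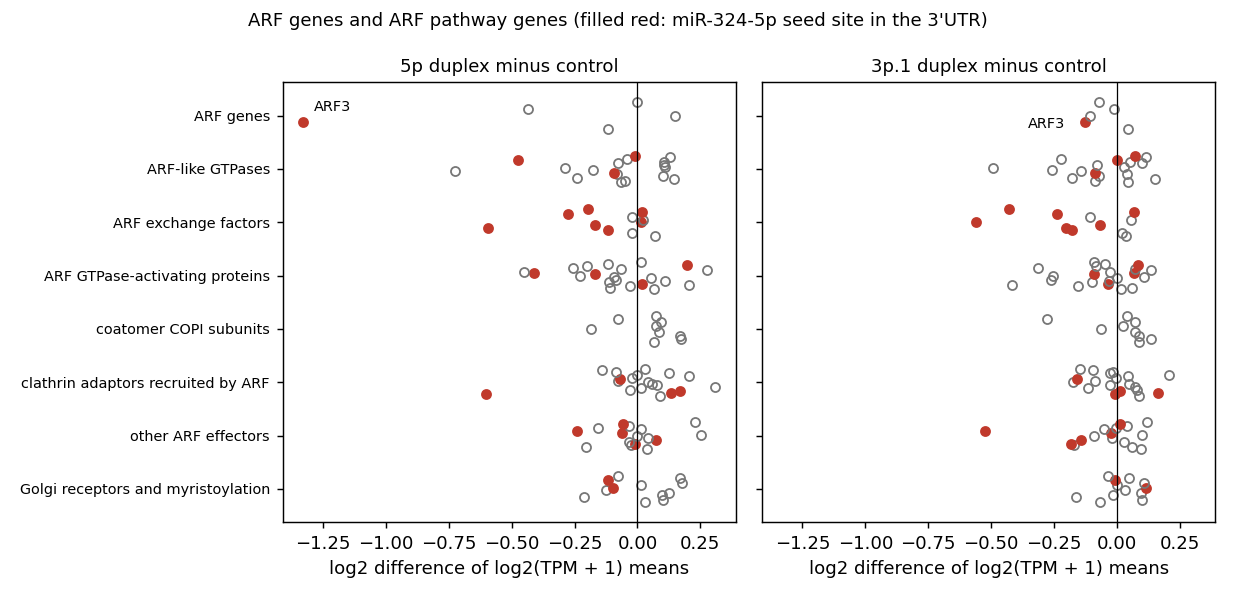
Differences between group means of log2(TPM + 1) for the 5 ARF genes and 106 pathway genes by list (x axis; left, 5p duplex minus control; right, 3p.1 duplex minus control; points, genes; filled red, a 5p seed match in the 3′UTR). ARF3 lies at -1.33 on the left, below every pathway gene plotted there, and at -0.13 on the right.

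The genes with the pattern most like ARF3 were sought among 10623 other genes that averaged 5 TPM or more, by the root-mean-square difference between mean-centred log2(TPM + 1) profiles over the 6 libraries. The closest were SYNGR2 (a difference of 0.106), C16orf87 (0.113), SREBF2 (0.122), WASF2 (0.126) and VPS25 (0.131). A 5p seed match, a 7mer in each case, was held by 3 of these 5 (SYNGR2, SREBF2 and WASF2). Among all expressed genes with an annotated 3′UTR the share with any 5p match was 14.6%. These 5 genes were picked for their likeness to ARF3, and whether the matches bear on their levels was not tested. SYNGR2, a membrane protein gene of the synaptogyrin family, stood at 27.99 and 34.3 TPM with the 5p duplex, 75.5 and 73.3 TPM with the 3p.1 duplex, and 85.1 and 86.6 TPM in control. SREBF2, which encodes a transcription factor of cholesterol synthesis, stood at 12.4 and 12.6 TPM with the 5p duplex, 23.9 and 27.6 TPM with the 3p.1 duplex, and 29.04 and 31.3 TPM in control. Both were lowest with the 5p duplex. Between the 3p.1 duplex and control they differed by -0.205 and -0.225 on the log2 scale, which limma did not call (adjusted p = 0.828 and 0.78). Their 3p.1 duplex libraries lay below control without overlap, as did those of C16orf87 and VPS25, and as 24.1% of all genes did. For WASF2 the 3p.1 duplex and control libraries overlapped. C16orf87 stood at 15.4 and 14.3 TPM with the 5p duplex, 29.9 and 33.6 TPM with the 3p.1 duplex, and 34.4 and 34.4 TPM in control. WASF2, which encodes an activator of actin branching, stood at 21.5 and 20.9 TPM with the 5p duplex, 51.8 and 52.7 TPM with the 3p.1 duplex, and 49.3 and 54.9 TPM in control. VPS25, a subunit of the endosomal ESCRT-II complex, stood at 105 and 113 TPM with the 5p duplex, 223 and 215 TPM with the 3p.1 duplex, and 241 and 225 TPM in control. In each of these the 5p duplex libraries were the lowest by a wide margin, as the ranking itself requires.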

How the data were processed

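RNA from 6 libraries of A172 cells was sequenced as stranded 100 bp pairs after oligo-dT selection, per the labels' protocols. The authors deposited TPM per gene symbol for each library. RSEM and GRCh38 are named per the submitters' processing notes, while the aligner, the annotation and all versions are not stated there. Unlisted symbols counted as 0, and repeated symbols (21 to 23 per library) were summed. Genes averaging 1 TPM or more (13400) were analysed as log2(TPM + 1), which understates changes of low genes. A model of group means over all 6 libraries was fitted with limma 3.58.1 in R 4.3.3 (variance trend, 3 residual and 3.38 prior degrees of freedom). Benjamini-Hochberg adjusted p under 0.05 over all genes, two-sided, was a call. Errors of log2 differences are the model's standard errors.

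Symbols were matched to GENCODE 29, 12636 directly and 322 by RefSeq synonyms, with 442 unmatched. Members, lists and tests were chosen with earlier results of these data known. Named genes were all members, and in each list called genes, the 3 most abundant and those with a 5p 8mer; some genes of the lists are not reported here. Protein identity was not computed, and coding sequences were compared instead. Alternatives varied the pseudocount, filter, scaling, variance model, libraries and replicate term.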

Additional observations from a re-analysis of the deposited data

How the results depend on the processing

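The ARF3 difference between the 5p duplex and control lay between -1.40 and -1.25 under all 14 alternatives, and that to the 3p.1 duplex between -1.30 and -1.10. ARF1, ARF4 and ARF5 kept their directions in those contrasts, while ARF6, near 0, did not (-0.0712 to 0.0668 against control). No member was called between the 3p.1 duplex and control under any alternative, but the values there moved when 1 library was left out: ARF1 (-0.0123 to 0.098) and ARF5 (-0.124 to 0.103) changed sign, and ARF3 ran from -0.225 without 3p.1 duplex replicate 2 to -0.0249 without 3p.1 duplex replicate 1. ARF4 and ARF6 stayed negative. Counts over all genes were less stable than member values. With the 5p duplex against control they were 62 as reported, 9 with no filter on low values, 33 with no variance trend, 11 with only the 2 groups compared, and 7 to 128 when 1 library was left out (7 and 28 without 5p duplex replicate 1 and 2, 12 without either 3p.1 duplex library, 128 and 19 without control replicate 1 and 2). With the 3p.1 duplex against control they were 2 as reported, 0 with a pseudocount of 5 (926 at an unadjusted limma p under 0.05), 0 with no filter (1444 unadjusted), 18 with only the 2 groups compared, and 5 to 94 when 1 library was left out, the most without control replicate 1. With the 5p against the 3p.1 duplex they were 58 as reported, 5 with no filter, 5 with no variance trend, 19 with only the 2 groups compared, and 7 to 26 when 1 library was left out. The cause was not tested. Where a left-out library leaves 1 in a group, that library is assumed to vary like the others.

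Replicate numbers tie the libraries to no batch in the labels, and deviations of same-numbered libraries correlated across genes at 0.265 to 0.383. With a replicate block the counts were 367, 30 and 278 of 13400 genes. Of the 106 pathway genes, 5 and 4 were then called with the 5p duplex against control and against the 3p.1 duplex. All 5 were lower, among them CYTH1, AP1G1 and ARFGAP3 (log2 -0.59, -0.60 and -0.45). The 4 included AP1G1, lower, and CYTH3, higher (0.57). Under the 13 other alternatives, 0 pathway genes were called. Using all annotated 3′UTRs in place of the longest left 1 member with a 5p match.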
